A study of Mus musculus with 12 samples.

Results

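HM1 is a cell line from a mouse ovarian cancer, and 10 genes for digestive enzymes or enzyme cofactors of the exocrine pancreas were followed through its 12 RNA sequencing libraries. The members are Cela1, Cela2a, Cela3b, Prss2, Ctrb1, Pnlip, Try4, Try5, Cpa1 and Clps, which are 10 of 55416 Ensembl genes listed for both cells and tumors. They were picked by name, with their levels in culture and in tumors and their knockdown change in culture already known. Those values are therefore given as a description, and where a test of members in culture is printed, nothing is read from it.

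The libraries form 4 groups of 3. These are cultured HM1 cells carrying a short hairpin RNA against St3gal3 (shST3GAL3, labelled as knockdown), cultured HM1 cells with a control hairpin (shControl, labelled wild type), tumors of the knockdown line and tumors of the control line. St3gal3 encodes a sialyltransferase, which caps glycan chains with sialic acid, and every group carries a hairpin. The labels do not give the mouse strain, the age, the tumor site or time, the hairpin sequence, or whether a line is 1 clone. Nor do they give the origin of the 3 samples in each group (distinct dishes or mice), so the spread behind a p-value may be technical.

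Acinar cells of the pancreas make digestive enzymes as secretory proteins and store most of the proteases as inactive zymogens. Trypsinogen is activated in the gut by enteropeptidase, and trypsin then activates the other zymogens. In healthy tissue these messages are made at very high levels in acinar cells under transcription factors such as PTF1A, RBPJL and BHLHA15. They are not regarded as products of ovarian epithelium.

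All 10 enzyme genes were at or above 1 TPM in each of the 6 culture libraries. TPM is a length-corrected share of all transcripts in a library, scaled to the same total in each. Whether the cultured HM1 cells made these transcripts, or RNA or reads from another source entered the libraries, was not tested, and this limit holds for every culture level given here. For 9 of the 10, every culture library lay above every tumor. Cela1 was the exception, with similar levels in both. Among the 15381 genes that averaged 1 TPM or more in any of the 4 groups, 21.9% had every culture library above every tumor. Every culture library lay below every tumor for 0 of the 10 and for 33.0% of these genes. The members were chosen with this comparison known, and nothing is read from these shares. Tables of cells and tumors were normalized separately, so levels across them are set side by side only. In bulk tissue, fewer tumor cells and less RNA per cell cannot be told apart.

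The libraries had 12629 to 13145 genes at or above 1 TPM in culture and 14046 to 14534 in tumors. St3gal3 itself was at 1.53 ± 0.290 TPM in knockdown and 11.7 ± 1.82 TPM in control culture, and at 6.30 ± 0.848 TPM in knockdown and 14.9 ± 0.794 TPM in control tumors (SD, n = 3 each). It fell by 2.32 on the log2 scale in culture and by 1.13 in tumors (limma adjusted p = 0.00689 and 0.00954). Of the listed epithelial and ovarian tumor genes, Krt8, Krt18, Krt19 and Msln were present in every library. Epcam, Wt1, Pax8 and Muc16 were at 0.30 TPM or less in every culture library.

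The trypsins come first, since they are the activating proteases of the group. Try5 was at 76.15, 65.94 and 80.48 TPM in knockdown culture and at 41.31, 38.31 and 37.23 TPM in control culture. In tumors it was at 2.36, 1.86 and 2.97 TPM with the knockdown and at 1.24, 1.18 and 2.33 TPM without it. Try5 thus separated the culture groups without overlap, with the knockdown libraries higher, while the tumor groups overlapped.

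Try4 was at 6.92, 7.33 and 5.65 TPM in knockdown culture and at 6.13, 7.61 and 7.11 TPM in control culture. It was listed at 0 in all 6 tumors. Prss2, another trypsin, was at 11.19, 9.09 and 9.41 TPM in knockdown culture and at 8.62, 9.73 and 8.97 TPM in control culture. In tumors Prss2 was at 3.23, 0.83 and 0.31 TPM with the knockdown and at 0.46, 0.56 and 0.79 TPM without it. Both genes had overlapping groups in culture, and the highest tumor value of Prss2 came from knockdown tumor 1 alone.

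The trypsin messages resemble each other, which bears on how their reads can be told apart. The 801 bases of Try4 and Try5 in GENCODE M21 (GRCm38) were 97.1% identical in a global alignment, and Prss2 was 87.9% identical to Try4 and 86.9% to Try5. Of the 50-base windows of Try5, 45.9% occurred unchanged in Try4, and 53.9% in some other gene. For Try4 the share found in other genes was 65.6%, and for Prss2 it was 7.83%. The first 120 coding bases are shown to let this be seen, in lower case, with capitals where a base differs from Try5. All 3 genes lie on chromosome 6, Try5 on the minus strand and the others on the plus strand.
Try5: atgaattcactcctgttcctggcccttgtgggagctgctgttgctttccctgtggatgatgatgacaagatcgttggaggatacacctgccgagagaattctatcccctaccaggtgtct
Try4: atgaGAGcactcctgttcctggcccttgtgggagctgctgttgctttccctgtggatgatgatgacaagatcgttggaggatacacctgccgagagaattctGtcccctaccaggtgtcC
Prss2: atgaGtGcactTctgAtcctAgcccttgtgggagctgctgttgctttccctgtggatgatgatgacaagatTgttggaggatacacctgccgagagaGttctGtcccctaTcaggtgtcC
Try4 differed from Try5 at 5 of these 120 bases and Prss2 at 10. The split of reads between these genes was estimated by the authors' software, so the separate levels of Try4 and Try5 are uncertain. Against Prss2, which shares fewer windows, Try5 stood at a ratio of 6.81, 7.25 and 8.55 in knockdown culture and of 4.79, 3.94 and 4.15 in control culture, without overlap. This ratio rests on the same uncertain Try5 level and is no separate check of it.

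The chymotrypsin-like and elastase-like proteases are zymogens that trypsin activates. Ctrb1, chymotrypsinogen B, was at 21.83, 21.96 and 19.68 TPM in knockdown culture and at 19.45, 24.99 and 23.52 TPM in control culture. It was listed at 0 in 5 of 6 tumors and at 0.07 TPM in knockdown tumor 2. Of its 50-base windows, 0 occurred in another gene, so the level of Ctrb1 does not rest on a shared message.

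Cela2a, an elastase, was at 7.34, 7.22 and 5.62 TPM in knockdown culture and at 6.02, 8.30 and 8.40 TPM in control culture. Cela3b, another elastase-family protease, was at 3.13, 2.56 and 3.80 TPM in knockdown culture and at 2.19, 3.02 and 2.63 TPM in control culture. Both were listed at 0 in all 6 tumors, and both overlapped between the culture groups. Part of their sequence is shared, since 25.6% of the windows of Cela2a occurred in a transcript assigned to Ctrc and 33.2% of those of Cela3b in Cela3a.

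Cela1 stood apart from the other 9. It was at 45.81, 46.69 and 48.24 TPM in knockdown culture and at 47.85, 47.15 and 52.57 TPM in control culture. In tumors it was at 58.46, 52.05 and 53.15 TPM with the knockdown and at 56.19, 61.73 and 56.70 TPM without it. The lowest tumor lay below the highest culture library, and the ratio of the culture mean to the tumor mean was 0.852. None of its windows occurred in another gene. Cela1 is also known to be transcribed outside the pancreas in the mouse.

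The lipid-digesting pair is Pnlip, pancreatic lipase, and Clps, the colipase that anchors it to fat droplets. Pnlip was at 1.66, 2.42 and 1.5 TPM in knockdown culture and at 1.82, 2.39 and 3.19 TPM in control culture. Clps was at 1.58, 2.20 and 1.89 TPM in knockdown culture and at 1.64, 2.50 and 1.48 TPM in control culture. Both were listed at 0 in all 6 tumors, and neither separated the culture groups.

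Cpa1, a carboxypeptidase that trims amino acids from the ends of peptides, was the least abundant member on average in culture. It was at 1.27, 1.56 and 1.54 TPM in knockdown culture and at 1.68, 1.77 and 2.13 TPM in control culture. In tumors it was at 0.20, 0.28 and 0.23 TPM with the knockdown and at 1.11, 0.99 and 1.12 TPM without it. Knockdown libraries lay below control libraries in both tissues, and the culture libraries of either line lay above all tumors.

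**Figure D1:**
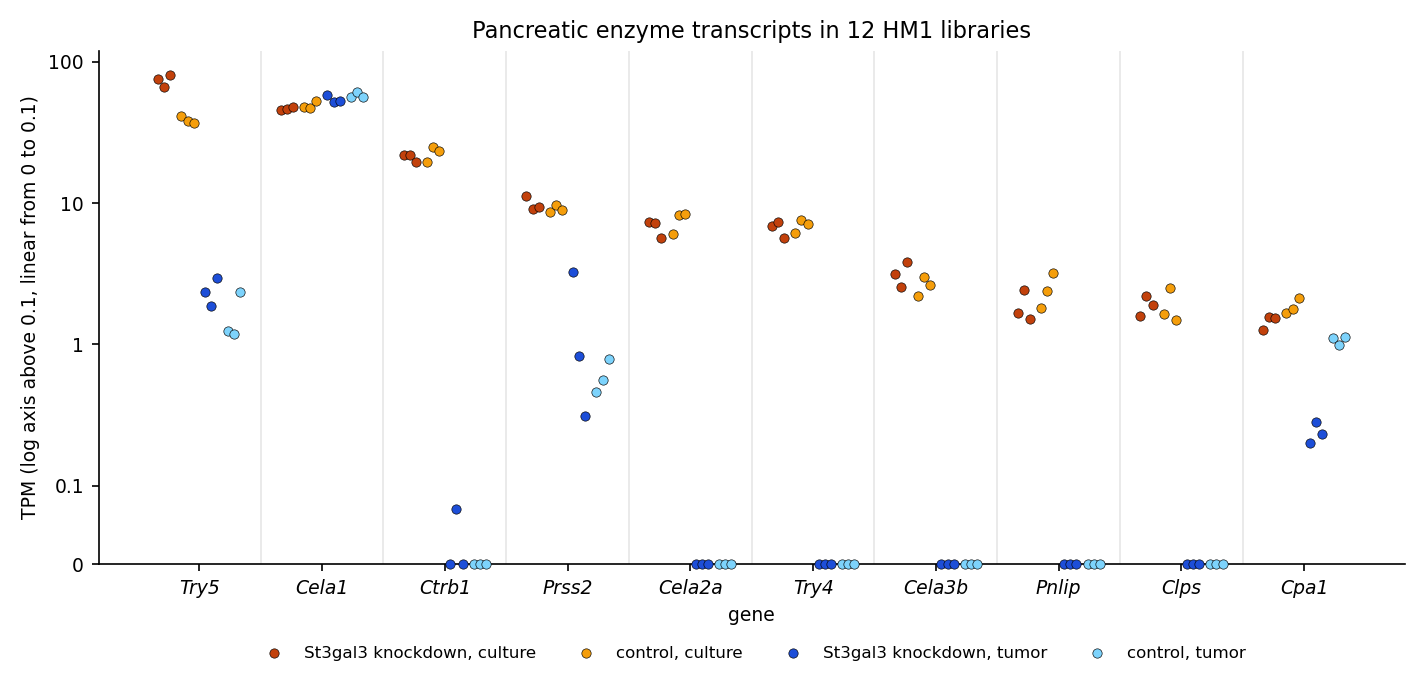
TPM of the 10 enzyme genes in each of the 12 libraries, on a log axis above 0.1 and a linear axis below it, with 1 point per library and colors for the 4 groups. Cela1 is at similar levels in all groups, 5 genes sit at 0 in all 6 tumors, and Try5 is the gene whose 3 knockdown culture libraries stand clear above the 3 control ones.

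Taken as a sum, the 9 genes other than Cela1 held 131, 120 and 129.6 TPM in knockdown culture and 88.9, 98.6 and 94.7 TPM in control culture. In tumors the sum was 5.79, 3.04 and 3.51 TPM with the knockdown and 2.81, 2.73 and 4.24 TPM without it. The mean over culture was 30.0 times the mean over tumors, and of the tumor sum Try5, Prss2 and Cpa1 made up all but the 0.07 TPM of Ctrb1. Without Try5 as well, the remaining 8 genes summed to 54.9, 54.3 and 49.1 TPM in knockdown culture and 47.6, 60.3 and 57.4 TPM in control culture, which overlap.

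The proportions of the 9 genes varied with Try5, which held 58.1, 54.8 and 62.1% of their sum in knockdown culture and 46.5, 38.8 and 39.3% in control culture. The median coefficient of variation (SD over mean) of the 9 shares was 21.1% over the 6 libraries, and 25.9% with the 3 trypsin genes summed. Shares were also taken without Try5, a choice made after its values were seen. Of the remaining 8, Ctrb1 took 39.7 to 41.4% of the summed TPM in the 6 libraries, with a coefficient of variation of 1.53%. Try4 took 11.5 to 13.5%, Cela2a 11.4 to 14.6% and Prss2 15.6 to 20.4%. The scarcer members varied more, from 3.02 to 5.55% for Pnlip, from 4.58 to 7.74% for Cela3b, from 2.58 to 4.15% for Clps and from 2.31 to 3.71% for Cpa1. In order of TPM among all 10, Ctrb1 held rank 3 and Prss2 rank 4 in every culture library. Try5 was above Cela1 in the knockdown libraries and below it in the control libraries, with the other 8 beneath both. Cela2a and Try4 overlapped each other at ranks 5 and 6. Among the lower members, Pnlip, Clps and Cpa1 changed places from library to library, and their ranges over the 6 libraries overlapped.

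**Figure D2:**
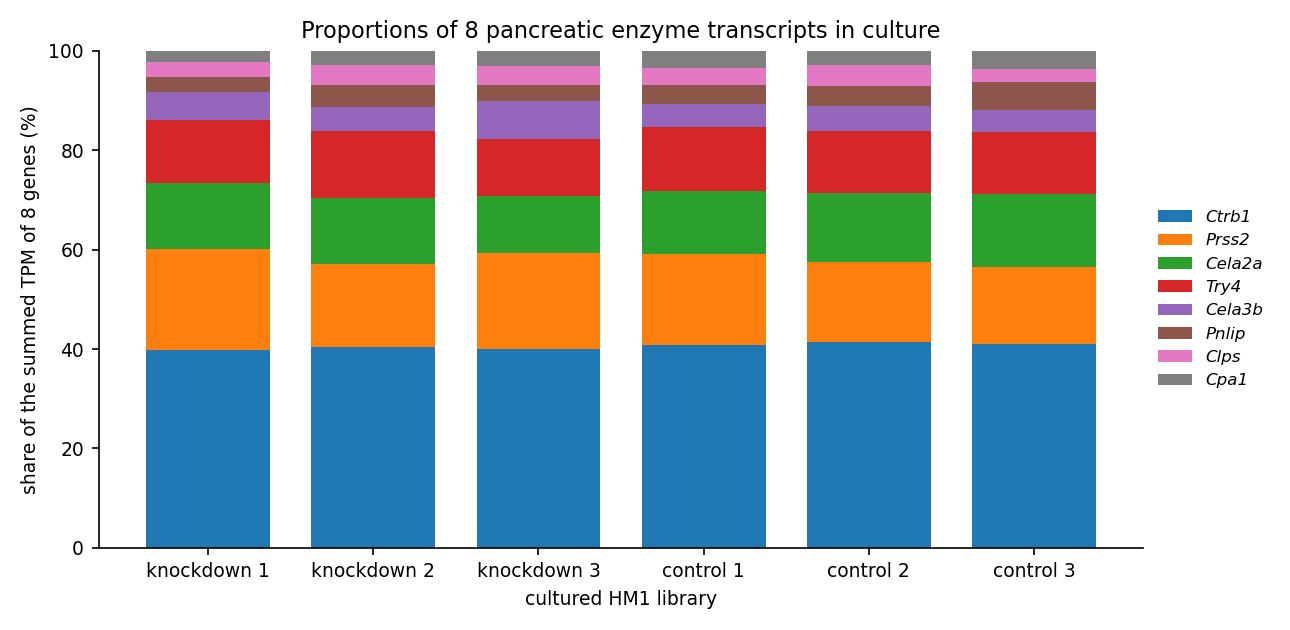
Share of each of 8 enzyme genes in their summed TPM, as stacked bars for the 3 knockdown and 3 control culture libraries. Ctrb1 is the tallest segment at 39.7 to 41.4%, while scarcer genes vary more, with Pnlip from 3.02 to 5.55% and Cela3b from 4.58 to 7.74%. Cela1 is not included, and Try5 was left out after its values were seen.

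Knockdown was set against control in culture to see which of these genes differ with St3gal3. Try5 had a mean of 74.2 ± 7.47 TPM in knockdown culture and 39.0 ± 2.11 TPM in control culture (SD, n = 3 each), a ratio of 1.90, which is a log2 change of 0.91 (SE 0.095) on the log2(TPM + 1) scale. Cpa1 averaged 1.46 ± 0.162 TPM in knockdown and 1.86 ± 0.238 TPM in control culture, a log2 change of -0.22 (SE 0.18). The other 8 genes overlapped between the groups, with log2 changes from -0.27 for Pnlip to 0.20 for Cela3b. The median over the 10 was -0.06, beside 0.02 over the 13492 genes tested. Of the 10, 0 were among the 4 genes called by limma at an adjusted p under 0.05, which are 0.0296% of those tested (0.0148% higher and 0.0148% lower in knockdown). Among all genes tested, 5.25% had every knockdown library above every control library, as Try5 did, and 2.45% had every one below, as Cpa1 did. Try5 was close to the limma threshold. It passed in 3 of 12 alternatives, which were a pseudocount of 0.1, a filter of 1 TPM in 3 libraries, and the fit without knockdown culture 2. This contrast was known when the members were chosen, so neither the counts nor these calls are read further.

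The same comparison in tumors was not used in choosing them, and 4 of the 10 could be tested there. The other 6 did not reach a mean of 1 TPM in either tumor group. Cpa1 passed only through control tumors and Prss2 only through knockdown tumors, the group where each was higher, so the filter favours a difference for both and their tests support nothing on their own. Limma called 0 of the 4, beside 225 of the 14915 genes tested (1.51%). The calls in knockdown tumors comprised 160 higher genes (1.07%) and 65 lower ones (0.436%). At an unadjusted limma p under 0.05 the count was 1 of the 4, Cpa1, beside 18.7% of all genes tested.

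Cpa1 averaged 0.237 ± 0.0404 TPM in knockdown tumors and 1.07 ± 0.0723 TPM in control tumors (SD, n = 3 each). The ratio of the means was 0.220, with lower values in 3 of 3 knockdown tumors. The difference on the log2(TPM + 1) scale was -0.75, with an SE of 0.18 and a limma adjusted p of 0.0938, which misses the threshold. Without the filter on low values it was 0.0605 by limma. With a pseudocount of 0.1 in place of 1, the difference was -1.81 (limma adjusted p = 0.135), and with all 4 groups in one fit the limma adjusted p was 0.00515. Over its 11 alternatives the limma adjusted p ranged from 0.00515 to 0.268. Among all genes tested, 14.9% had every knockdown tumor below every control tumor. The 8 genes of the stomach list summed to 6.26, 6.68 and 5.11 TPM in knockdown tumors and 57.5, 33.4 and 26.4 TPM in control tumors, mainly from the trefoil factor gene Tff2. Of its 8 genes 2 were tested and 1, Tff2, was called lower. Gkn2 and Cblif were listed at 0 in all 6 tumors, and Gkn1, Muc5ac, Atp4a and Pgc were at 0.23 TPM or less. Their part in the Cpa1 values was not tested.

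Try5, which reached the threshold in both tumor groups, differed by 0.41 on the log2 scale in tumors, with an SE of 0.22 (limma adjusted p = 0.352). Every knockdown tumor lay above every control tumor for 9.81% of genes tested and for 0 of the 4 members, too few members to read a difference from. Prss2 differed by 0.44, with an SE of 0.41 (limma adjusted p = 0.587, and 0.655 without the filter). Its 3.23 TPM came from knockdown tumor 1, which also held the highest sum of the 10 skeletal muscle genes. That sum was 88.5, 12.2 and 65.1 TPM in knockdown tumors and 2.40, 14.1 and 2.56 TPM in control tumors. Knockdown tumor 3, with the next highest muscle sum, had the lowest Prss2 value of the tumors, 0.31 TPM. The part of muscle in the Prss2 values was not tested. Without knockdown tumor 1, Prss2 no longer averaged 1 TPM in either tumor group. Cela1 differed by -0.09, with an SE of 0.074 (limma adjusted p = 0.534). Whether the knockdown effect differs between culture and tumors was not tested for any of these genes.

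**Figure D3:**
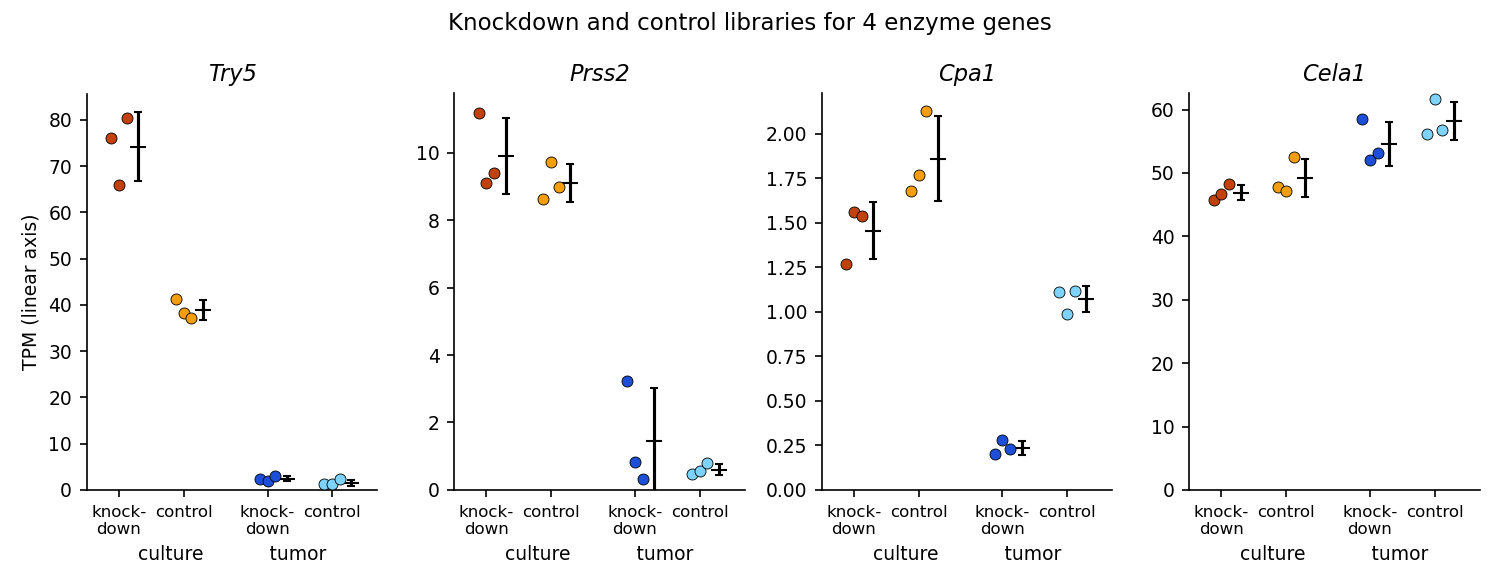
TPM on linear axes from 0 for Try5, Prss2, Cpa1 and Cela1, with 1 point per library and the mean ± SD of each group of 3 beside the points (for Prss2 in knockdown tumors the SD reaches below 0 and the bar ends at the axis). Try5 is higher in knockdown than control culture, Cpa1 is lower in knockdown than control tumors, and Cela1 overlaps in each pair.

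Other secretory genes of the acinar cell were also present in culture, at a lower sum than the 9 enzyme genes without Cela1. Single genes overlapped in level with the members, and Amy2a4 averaged more than Prss2. Of 31 such genes listed, 28 were above 0 in some culture library and 22 in every one. Every culture library lay above every tumor for 16 of them, and below for 1, the phospholipase gene Pla2g1b. Among the 15381 genes averaging 1 TPM or more in a group, a mean that not all of the 31 reached, these shares were 21.9% and 33.0%. The list was drawn up with earlier results known, and nothing is read from these counts. Their sum was 41.2, 39.6 and 35.9 TPM in knockdown culture and 36.1, 41.1 and 40.1 TPM in control culture, against 5.21 to 10.5 TPM in tumors. In culture, 13 of the 31 were tested for the knockdown and 0 were called, with a median log2 change of -0.03. In tumors 2 were tested, Pla2g1b and Reg1, and 0 were called.

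The leading gene of this list was Amy2a4, a pancreatic amylase, at 12.8 ± 1.46 TPM over the 6 culture libraries (SD) and at most 0.01 TPM in a tumor. Amylase genes are near-identical copies, and the split between Amy2a2, Amy2a3, Amy2a4 and Amy2a5 is uncertain. The regenerating-family genes Reg2 and Reg1 followed at 3.32 ± 0.745 and 3.09 ± 0.295 TPM, and the chymotrypsin-like Ctrl at 2.24 ± 0.533 TPM. Prss3, a trypsin, and Pnliprp1, a lipase-related gene, averaged 1.83 and 1.54 TPM in culture and were listed at 0 in all 6 tumors. Zg16 and Sycn, which encode zymogen granule proteins, averaged 1.53 and 1.34 TPM, and Rnase1, pancreatic ribonuclease, 1.15 TPM. Pla2g1b, Klk1 and 2210010C04Rik averaged 1.31, 1.13 and 1.09 TPM. Sycn was at 1.97, 1.70 and 1.90 TPM in knockdown culture and 0.48, 0.81 and 1.20 TPM in control culture, without overlap. Of all genes tested in culture, 5.25% likewise had every knockdown library above every control library.

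Spink1, the inhibitor that protects the acinar cell from trypsin, averaged 1.07 ± 0.371 TPM in culture and was listed at 0 in all 6 tumors. Tmprss15, which encodes enteropeptidase, was listed at 0 in all 12 libraries. F2rl1, a receptor that trypsin cleaves and activates, was at 20.7 to 27.8 TPM in culture and 24.6 to 42.5 TPM in tumors.

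The transcription factors of the acinar cell did not accompany the enzymes. Ptf1a was listed at 0 in all 12 libraries. Rbpjl reached 0.04 TPM at most in culture, Bhlha15 0.08 TPM, Nr5a2 0.03 TPM and Gata4 0.03 TPM. Cckar, the cholecystokinin receptor of acinar cells, reached 0.04 TPM. The 6 genes together summed to 0.02 to 0.13 TPM in culture, against 88.9 to 131 TPM for the 9 enzyme genes. With unknown depth, a listed 0 gives no limit on the level of such low transcripts.

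Endocrine genes of the pancreas were near 0 as well, with Ins2 at 0.15 TPM at most in culture, Gcg at 0.25 TPM and Sst at 0.21 TPM. Pdx1, a transcription factor of pancreas and duodenum, was at 20.8 to 34.7 TPM in culture and 16.9 to 22.9 TPM in tumors. It was the 1 gene of 17 in the endocrine list with a mean of 1 TPM in culture. Of 8 duct genes 4 reached that mean, with Krt19 and Spp1 the highest, both also widespread in other epithelia and tumors, while Cftr was at 0.03 TPM or less. Lists for other organs had few genes present in culture. Of 12 liver genes 1 averaged 1 TPM there, the transferrin gene Trf, and Alb, the albumin gene, was listed at 0. Of 7 salivary gland genes 1 did so, the water channel gene Aqp5, at 113 to 156 TPM in culture and 6.85 to 16.3 TPM in tumors, while Smr3a, Bpifa2 and Pip were listed at 0. Of 9 small intestine genes 2 did so, Rbp2 and Fabp2, both of which bind lipids, and Alpi was listed at 0. Immune and endothelial genes summed to 13.4 to 18.1 TPM in culture and 809 to 1157 TPM in tumors, with Ptprc, the leukocyte antigen CD45, at 0.04 TPM at most in culture.

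**Figure D4:**
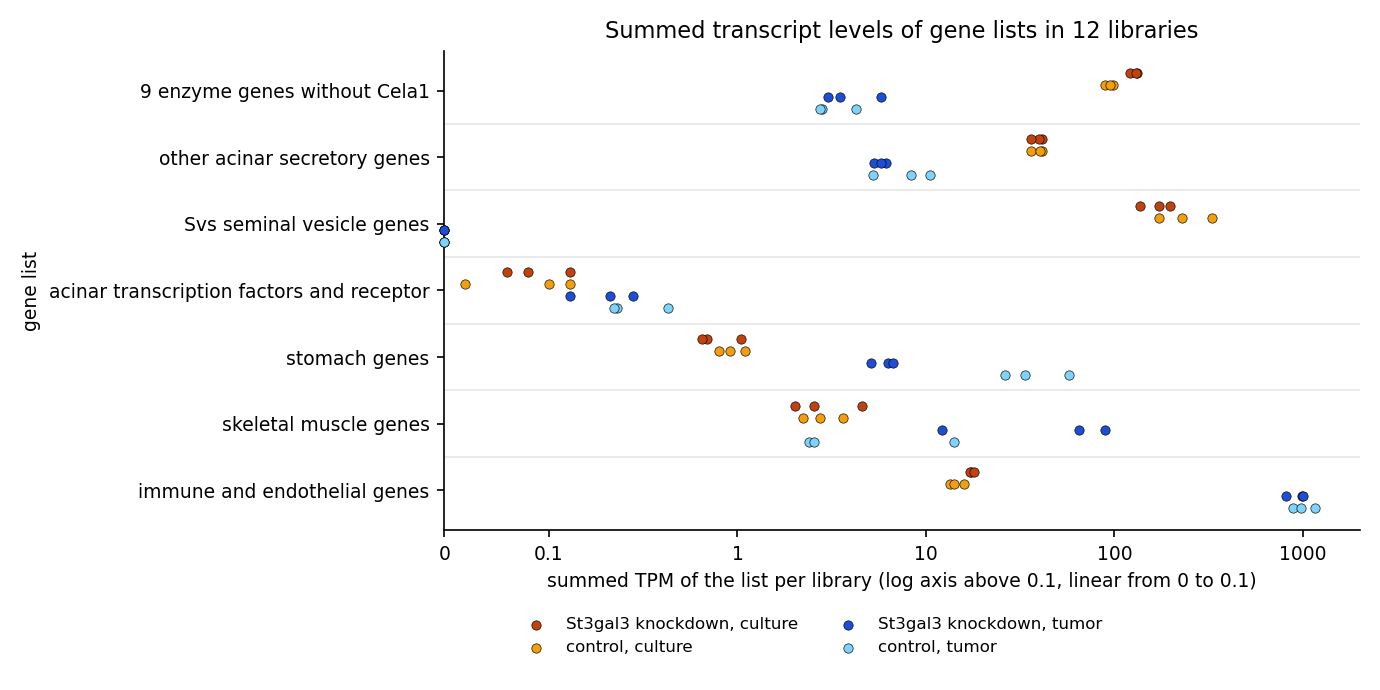
Summed TPM of 7 gene lists in each of the 12 libraries, on a log axis above 0.1 and a linear axis below it, with colors for the 4 groups. The 9 enzyme genes, the other acinar secretory genes and the Svs seminal vesicle genes are high in culture and low or at 0 in tumors, while the acinar transcription factors stay at 0.43 or less throughout.

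Few genes shared the pattern of presence in every culture library and near absence from tumors. Of 11484 genes at 1 TPM or more in all 6 culture libraries, 56 (0.488%) were at most 0.1 TPM in every tumor. They include 6 of the 10 enzyme genes and 3 other listed acinar genes, Amy2a4, Prss3 and Pnliprp1. Amy2a1, a further amylase, and Reg3b, a regenerating-family gene, are also among the 56, at culture means of 7.06 and 1.89 TPM. A set of 7 belongs to the Svs genes, which encode secretory proteins of the seminal vesicle. Another 26 have no name or a predicted or clone name. A further 14, with Amy2a1 and Reg3b among them, are of other kinds. The highest of these 14 by culture mean were Abca13, Rny3, Mir130c, Tex21 and Bhmt, at 115, 91.2, 77.7, 46.3 and 46.2 TPM. The members and the acinar list were chosen with earlier results known, and Amy2a1, Reg3b and the Svs genes with their levels in view. Nothing is read from their counts among the 56.

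The Svs genes were all listed at 0 in the 6 tumors. Svs5 was at 115, 103 and 81.2 TPM in knockdown culture and at 127, 179 and 101 TPM in control culture. The 7 genes summed to 137 to 330 TPM over the culture libraries, a wider range than the 47.6 to 60.3 TPM of the 8 enzyme genes without Cela1 and Try5. Control culture 2 had the highest value of both sums. The lowest enzyme sum, 47.6 TPM, was in control culture 1, where Svs5, at 127 TPM, was second to control culture 2. Whether the sums vary together was not tested.

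By correlation, the genes most like the summed enzymes were sought among 12774 named genes. Over all 12 libraries these were Gpn1, Zfp398, Snrpb, Cdc6, Traip, Scrn2, Sdhd and Cisd3, with Pearson correlations of 0.992 to 0.995 on the log2 scale. Over the 6 culture libraries alone they were Fhl2, Zfp398, Rac1, Col16a1, Lcmt2, Tmem185b, Tmem39b and Ralgps2, at 0.969 to 0.981. Zfp398, at 18.9 TPM in knockdown and 14.1 TPM in control culture, was on both lists. These are descriptions over few libraries, which share their group structure, and the sum is led by Try5 and Cela1. None of them is in the list of acinar secretory genes.

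Promoters are shown for 4 members because the enzyme genes are present together in culture, while Cela1 is present in tumors too. RefSeq promoters (GRCm38.p6), from 250 bases before to 50 after the gene start, were held for 8 of the 10, not Try5 or Clps. Capitals mark CACCTG and TGGGAA, which are parts of the bipartite site of the PTF1 complex, AAGGTCA, a core of NR5A2 sites, and TATAAA, the TATA box, each on either strand. A motif found on the other strand appears as its reverse complement. The 4 lie at chr15:100687871-100688170 (Cela1, minus strand), chr4:141825956-141826255 (Cela2a, minus strand), chr6:41521526-41521825 (Prss2, plus strand) and chr8:111690961-111691260 (Ctrb1, minus strand).
Cela1: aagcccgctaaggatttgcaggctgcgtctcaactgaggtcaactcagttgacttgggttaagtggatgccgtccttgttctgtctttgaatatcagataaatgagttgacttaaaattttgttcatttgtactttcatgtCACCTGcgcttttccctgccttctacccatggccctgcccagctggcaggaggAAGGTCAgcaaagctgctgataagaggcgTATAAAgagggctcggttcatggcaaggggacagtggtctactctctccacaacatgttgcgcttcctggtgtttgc
Cela2a: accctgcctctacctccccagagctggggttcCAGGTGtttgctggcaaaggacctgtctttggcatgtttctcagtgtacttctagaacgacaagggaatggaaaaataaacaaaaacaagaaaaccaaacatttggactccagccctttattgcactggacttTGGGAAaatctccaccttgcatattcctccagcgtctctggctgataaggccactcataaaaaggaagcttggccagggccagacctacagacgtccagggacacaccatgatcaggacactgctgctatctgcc
Prss2: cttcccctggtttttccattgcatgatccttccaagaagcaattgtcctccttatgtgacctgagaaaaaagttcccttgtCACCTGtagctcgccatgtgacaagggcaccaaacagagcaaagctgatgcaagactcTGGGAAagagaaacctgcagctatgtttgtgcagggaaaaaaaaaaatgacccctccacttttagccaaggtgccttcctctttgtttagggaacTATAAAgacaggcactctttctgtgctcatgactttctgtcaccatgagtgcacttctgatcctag
Ctrb1: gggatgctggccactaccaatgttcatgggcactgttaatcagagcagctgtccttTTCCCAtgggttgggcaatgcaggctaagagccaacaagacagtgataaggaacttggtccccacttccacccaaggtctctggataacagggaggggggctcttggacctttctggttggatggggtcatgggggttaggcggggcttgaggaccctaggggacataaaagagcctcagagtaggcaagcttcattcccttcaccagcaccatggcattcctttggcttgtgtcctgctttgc
CACCTG was found in 5 of the 8 promoters, beside 20.2% of the 32851 promoters in the table. TGGGAA was found in 5 of 8, beside 25.6% of all. Both occurred somewhere in the same promoter in 2 of 8, Cela2a and Prss2, beside 5.27% of all. The distance between the motifs was not considered, so this is no count of PTF1 sites. TATAAA was in 4 of 8, beside 13.6%, starting 27 bases before the gene start in Cela1, 31 in Try4, 30 in Pnlip and 16 in Prss2. AAGGTCA was in Cela1 alone of the 8, beside 4.72% of all. The looser CANNTG, which includes every CACCTG, was in 7 of 8 and in 72.3% of all. A match is a run of letters in this window and was not tested for binding.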

How the data were processed

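RNA of 12 HM1 samples was sequenced, 3 in each of 4 groups taken from the sample titles. The authors deposited 1 table per sample with gene length and TPM to 2 decimals. Tools named in the submitters' processing notes are fastp, HISAT and RSEM, and the build is GRCm39, with no version or role. The sources used here do not state strand use. Sequencing depth cannot be read from TPM, so values carry no counting interval. The gene length in the deposited tables was used to pick transcripts.

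Knockdown was compared with control within culture and within tumors on log2(TPM + 1) with limma 3.58.1 (R 4.3.3), using trended and robust variance moderation. A gene was tested where either group averaged 1 TPM or more, with two-sided Benjamini-Hochberg adjustment over all of them and a threshold of 0.05. Fold changes on this scale understate changes of low genes. The procedure was tested on simulated data. Members, gene lists and tests were chosen with earlier results of these data known. Named genes were the 10 members, St3gal3, acinar genes averaging 1 TPM or more in a group, up to 4 genes of each further list, and the 8 genes most alike by correlation over 12 and over 6 libraries. Markers near 0 were named in addition, as a check of cell type, and were picked with their values seen.

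Sequences came from RefSeq promoters and GENCODE M21 transcripts, both GRCm38 and not the authors' build, matched by symbol or gene identifier. Global alignment used Biopython 1.88 (match 1, mismatch -1, gap opening -5, extension -1). Protein sequences were not used here, so the planned identity of proteins was replaced by that of transcripts. Alternatives were a pseudocount of 0.1, other filters, a replicate block, all groups in one fit, other scalings and leaving out each library. Figures were drawn with matplotlib 3.10.9.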

Additional observations from a re-analysis of the deposited data

How the results depend on the processing

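Under every scaling and omission tried, the count of members with every culture library above every tumor was 9. Leaving out a library cannot lower this count, and the members were chosen with these levels known, so it supports nothing. The culture-to-tumor ratio of the 9 summed members without Cela1 was between 28.5 and 33.8. The median knockdown change of the members in culture ranged from -0.11 to -0.01. Counts of called genes moved more. In culture the count of 4 was 11 with a pseudocount of 0.1, 8 with 1 TPM in 3 libraries, 8 with all 4 groups in one fit, and 7 to 15 without 1 library. In tumors the count of 225 was 82 without a filter, 599 with all 4 groups in one fit, and 38 to 229 without 1 library. With a replicate block it was 4 in culture and 2 in tumors. Same-numbered knockdown and control libraries correlated in their deviations at -0.16 to 0.05, and differently numbered ones at -0.14 to 0.15. These values cannot decide whether the numbers pair the samples. Under the block St3gal3 in tumors had a limma adjusted p of 0.0768. Among the members tested in tumors, the call of Cpa1 with all groups in one fit was the 1 change of call. In culture Try5, not called at first, passed the threshold in 3 of 12 alternatives. The culture contrast was known when the members were chosen, so these Try5 calls support nothing. The median variation of the 9 shares in culture was 21.1%, and 25.9% with the trypsin genes summed. The cause of these shifts was not tested. Unknown depth limits what a listed 0 can show.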
